A study of Mus musculus with 39 samples.

Results

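Prom1, Cnmd, Smpd3 and 1700067K01Rik are 4 mouse genes outside drug metabolism whose liver signal was clearly higher with phenobarbital than in controls at each of 4 durations of treatment. They were chosen for that difference, so the difference itself is described here without a test. They were identified as the probe sets whose only gene symbol in the platform annotation is 1 of the 4 names, which gave 6 of 45101 probe sets and 4 of 18193 genes with a single-symbol probe set. Prom1, Cnmd and 1700067K01Rik had 1 such probe set each, and Smpd3 had 3.

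RNA of whole liver from male mice of the B6C3F1/Crl strain, a cross of C57BL/6 males with C3H/He females, was measured on 39 Affymetrix mouse GeneChip arrays. The mice arrived at an age of 29 to 32 days and acclimatised for 5 days. Treated mice drank water with phenobarbital at 0.05% (w/v), control mice are labelled only as Control, and both were sampled at 1, 7, 28 or 91 days. There were 4 arrays of day 1 controls and 5 of every other group, 8 groups in all. The listed hepatocyte markers had group means between 14.24 and 14.37 on the log2 scale, far above the array medians given below. In bulk RNA, a change in the number of cells of a type and a change in RNA per cell cannot be told apart.

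Phenobarbital is a sedative that acts on the liver through the nuclear receptor CAR, which switches on cytochrome P450 enzymes of the Cyp2b and Cyp2c families and conjugating enzymes. Long treatment promotes tumours of the mouse liver although the compound does not damage DNA. Prom1 encodes prominin-1, also known as CD133, a membrane glycoprotein of cell surface protrusions that is used as a marker of stem and progenitor cells and, in liver, of bile duct and progenitor cells. Cnmd encodes chondromodulin, a cartilage glycoprotein with a BRICHOS domain that inhibits blood vessel growth. Smpd3 encodes neutral sphingomyelinase 2, a membrane enzyme that splits sphingomyelin into ceramide and phosphocholine. 1700067K01Rik is named only by a clone identifier, and no role is given for it here.

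The stretches of 250 bases before the annotated starts are shown because the 4 genes rose together while these stretches differ in CpG content. RefSeq promoter entries of the GRCm38.p6 build matched Prom1 (2 starts), Cnmd and 1700067K01Rik, with Smpd3 not among them. The sequences are written 5′ to 3′ on the gene's strand, and capitals mark CpG dinucleotides. The Prom1 stretch lies at chr5:44101737-44101986 on the minus strand, the Cnmd stretch at chr14:79662184-79662433 on the minus strand and the 1700067K01Rik stretch at chr8:84001213-84001462 on the plus strand.
Prom1: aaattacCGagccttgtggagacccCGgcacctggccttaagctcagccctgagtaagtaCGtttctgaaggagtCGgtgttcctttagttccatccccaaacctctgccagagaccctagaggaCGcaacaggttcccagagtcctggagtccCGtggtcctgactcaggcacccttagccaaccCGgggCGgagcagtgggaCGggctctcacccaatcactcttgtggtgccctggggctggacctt
Cnmd: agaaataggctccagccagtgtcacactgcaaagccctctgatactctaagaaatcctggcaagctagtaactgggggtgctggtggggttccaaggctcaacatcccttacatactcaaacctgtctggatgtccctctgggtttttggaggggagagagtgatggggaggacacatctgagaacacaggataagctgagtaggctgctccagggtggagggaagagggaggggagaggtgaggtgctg
1700067K01Rik: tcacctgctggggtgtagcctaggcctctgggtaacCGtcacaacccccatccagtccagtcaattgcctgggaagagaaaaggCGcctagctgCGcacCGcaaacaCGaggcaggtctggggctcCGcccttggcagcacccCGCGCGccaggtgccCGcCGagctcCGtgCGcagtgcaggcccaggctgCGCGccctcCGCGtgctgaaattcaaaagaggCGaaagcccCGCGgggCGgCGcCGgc

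The 1700067K01Rik stretch held 23 CpG dinucleotides and the Prom1 stretch held 9, whereas the Cnmd stretch held 0. The median over 32851 promoters of the same length was 6, so the 3 stretches lay above, above and below it. The second annotated Prom1 start had 3 CpG dinucleotides in its stretch. GC content was 59.2% for Prom1 at its first start, 54.0% for Cnmd and 68.4% for 1700067K01Rik, against a median of 52.4%. The hexamers AGGTCA and AGTTCA, half-sites of the kind that nuclear receptors bind, were searched on both strands. Neither was found in any of the 4 stretches, while 24.2% of all promoters held at least 1 of them (14.0% AGGTCA and 11.8% AGTTCA). This says only that these letters are not in these windows.

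All values below are the authors' log2 signals, and a difference is phenobarbital minus control on the log2 scale. Array medians lay between 5.69 and 5.80 and lower quartiles between 4.37 and 4.48, which gives a scale for the levels. Replicates of a group had Pearson correlations of 0.989 to 0.996 across all probe sets. In 16 of 16 combinations of gene and day, every phenobarbital array lay above every control array of that day. Among the 12580 genes tested, this lack of overlap held for 12.8% at day 1, 3.61% at day 7, 5.8% at day 28 and 2.54% at day 91, and for 0.62% at all 4 days. Since the genes were chosen on this contrast, nothing is read from the count. The mean differences ranged from 1.24 to 3.46, and all 4 genes had their largest difference at day 7. For Prom1 this order was not stable, since day 1 was the largest when day 1 control replicate 2 or 3 (2.94 or 2.77) or day 7 control replicate 2 (2.55 at day 1 against 2.46 at day 7) was left out. For scale, the drug metabolism genes Cyp2b10 and Cyp2c55, both cytochromes P450, differed by 6.21 and 3.99 at day 1 and by 5.64 and 3.45 at day 91.

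**Figure D1:**
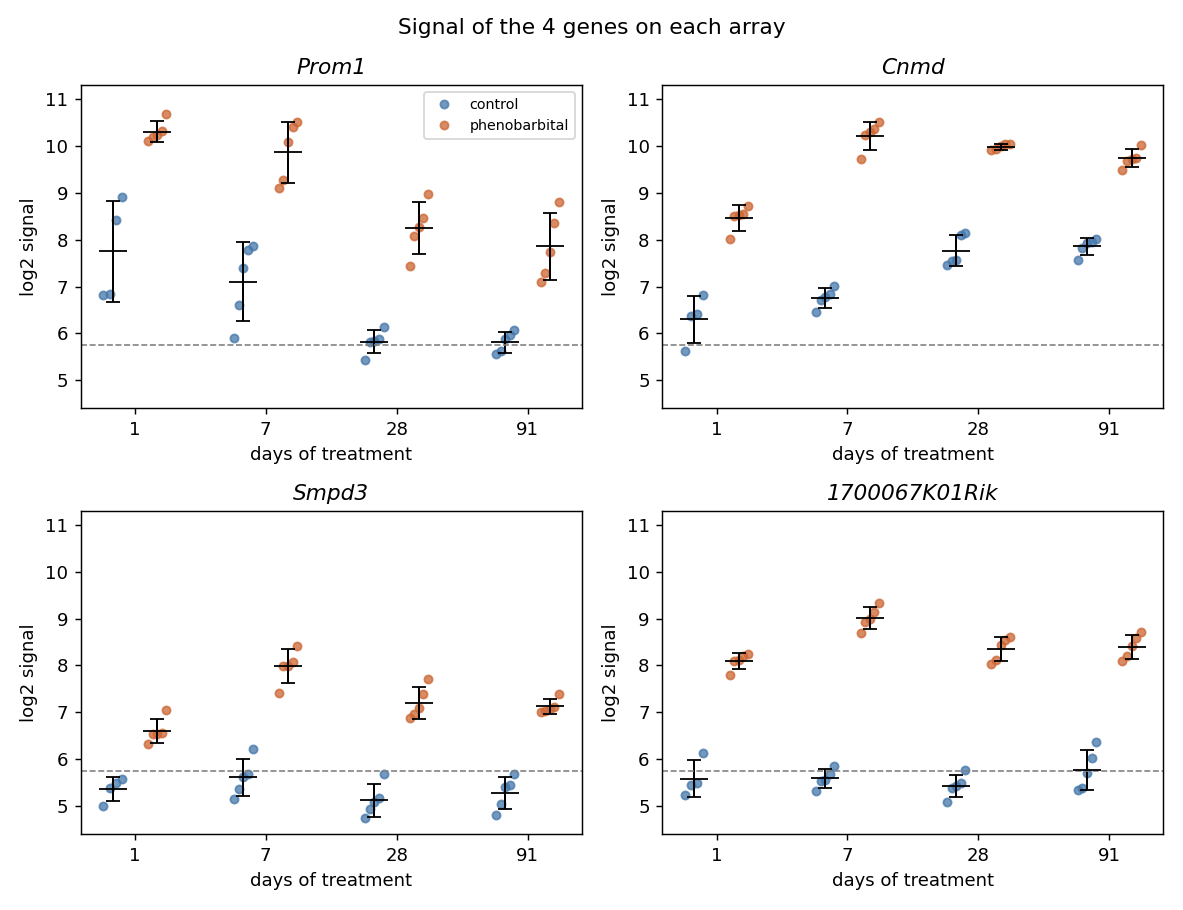
Log2 signal (vertical axes) of the brightest probe set of each gene on each of the 39 arrays, by days of treatment (horizontal axes), with controls in blue and phenobarbital in orange. Points are arrays, bars are the group mean with 1 SD on each side, and the dashed line marks the mean of the array medians. No phenobarbital point falls to the level of a control point of the same day, while the Prom1 controls fall and the Cnmd controls climb between days 1 and 28.

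Prom1 stood out by a baseline that fell with time and by wide spread between arrays. At day 1 the controls read 6.82, 6.84, 8.42 and 8.91 and the treated arrays 10.11, 10.18, 10.22, 10.31 and 10.67. At day 7 the controls read 5.90, 6.61, 7.40, 7.77 and 7.86 and the treated arrays 9.09, 9.27, 10.08, 10.40 and 10.51. The controls of these days were thus spread over 2.10 and 1.96, not much less than the treatment difference. At day 28 the controls read 5.44, 5.83, 5.83, 5.88 and 6.14 and the treated arrays 7.44, 8.09, 8.27, 8.47 and 8.98. At day 91 the controls read 5.55, 5.62, 5.88, 5.96 and 6.07 and the treated arrays 7.10, 7.30, 7.75, 8.35 and 8.80. From day 28 on the controls were close together at about the median of the array, and the spread lay in the treated arrays. The mean difference was 2.55 ± 0.39 at day 1, 2.76 ± 0.37 at day 7, 2.43 ± 0.37 at day 28 and 2.04 ± 0.37 at day 91 (± standard error, SE), which correspond to 5.86-, 6.78-, 5.38- and 4.12-fold.

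Cnmd had a baseline that rose with time. At day 1 the controls read 5.62, 6.36, 6.41 and 6.82 and the treated arrays 8.0, 8.51, 8.53, 8.55 and 8.72. At day 7 the controls read 6.45, 6.71, 6.77, 6.83 and 7.01 and the treated arrays 9.71, 10.23, 10.29, 10.35 and 10.50. Treated arrays thus moved up far more than controls between these days. At day 28 the controls read 7.47, 7.54, 7.57, 8.10 and 8.14 and the treated arrays 9.90, 9.93, 10.00, 10.03 and 10.04. At day 91 the controls read 7.57, 7.82, 7.93, 7.95 and 8.01 and the treated arrays 9.50, 9.67, 9.73, 9.75 and 10.03. At these later days the controls had come up towards the treated arrays, which stayed near their day 7 level. The difference was 2.16 ± 0.17 at day 1, 3.46 ± 0.16 at day 7, 2.22 ± 0.16 at day 28 and 1.88 ± 0.16 at day 91 (± SE), or 4.47-, 11.0-, 4.66- and 3.68-fold.

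Smpd3 was read by 1438665_at, its brightest probe set by the mean over all arrays, treated ones included. Its controls on that probe set were below the array median on 18 of 19 arrays. At day 1 the controls read 5.00, 5.39, 5.49 and 5.58 and the treated arrays 6.33, 6.54, 6.54, 6.57 and 7.04. At day 7 the controls read 5.15, 5.37, 5.63, 5.69 and 6.22 and the treated arrays 7.41, 7.98, 8.0, 8.08 and 8.42. The smallest gap among the 4 genes and days, 0.75 between the lowest treated and the highest control array, was that of Smpd3 at day 1. At day 28 the controls read 4.75, 4.94, 5.08, 5.18 and 5.68 and the treated arrays 6.88, 6.96, 7.09, 7.40 and 7.70. At day 91 the controls read 4.80, 5.05, 5.41, 5.45 and 5.68 and the treated arrays 7.00, 7.02, 7.08, 7.12 and 7.40. The controls thus kept 1 low range over the study, and the treated arrays were highest at day 7. The difference was 1.24 ± 0.20 at day 1, 2.37 ± 0.19 at day 7, 2.08 ± 0.19 at day 28 and 1.85 ± 0.19 at day 91 (± SE), or 2.36-, 5.15-, 4.23- and 3.59-fold.

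The other Smpd3 probe sets gave smaller differences. In controls alone 1438665_at was not the brightest but the dimmest of the 3 at each day, so its choice rests on the treated arrays. Its control means at days 1, 7, 28 and 91 were 5.36, 5.61, 5.13 and 5.28. Those of 1422779_at were 5.56, 5.85, 5.59 and 5.79, and those of 1450748_at 5.43, 5.77, 5.57 and 5.76. On 1450748_at the difference was 0.65 at day 1, 0.84 at day 7, 0.77 at day 28 and 0.38 at day 91, and treated and control arrays did not overlap at any of the 4 days. On 1422779_at it was 0.19, 0.55, 0.49 and 0.01, and the groups overlapped at days 1 and 91. The 3 probe sets therefore disagree on size, and 1422779_at does not carry the difference at day 91. With the mean of the 3 probe sets as the Smpd3 level, the differences were 0.69, 1.25, 1.11 and 0.75.

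The fourth gene, 1700067K01Rik, also had low controls, below the array median on 15 of 19 arrays. At day 1 the controls read 5.23, 5.46, 5.49 and 6.14 and the treated arrays 7.80, 8.10, 8.11, 8.20 and 8.24. At day 7 the controls read 5.33, 5.53, 5.55, 5.68 and 5.85 and the treated arrays 8.68, 8.92, 9.0, 9.13 and 9.33. The treated arrays lay above the 76th percentile of the array's probe sets on both days. At day 28 the controls read 5.09, 5.38, 5.42, 5.50 and 5.76 and the treated arrays 8.02, 8.12, 8.44, 8.54 and 8.61. At day 91 the controls read 5.34, 5.39, 5.72, 6.02 and 6.36 and the treated arrays 8.10, 8.19, 8.42, 8.59 and 8.70. The treated arrays covered nearly the same range at both late times. The difference was 2.51 ± 0.18 at day 1, 3.42 ± 0.17 at day 7, 2.91 ± 0.17 at day 28 and 2.64 ± 0.17 at day 91 (± SE), or 5.70-, 10.7-, 7.54- and 6.22-fold.

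All 4 genes passed the filter on dim genes, which asked for a level above the array median on at least 4 arrays. Prom1 was above it on 36 of 39 arrays, Cnmd on 38, Smpd3 on 21 and 1700067K01Rik on 24. Among the 19 control arrays the numbers were 16, 18, 1 and 4, so Smpd3 passed through its treated arrays. The sources used here give no detection call, so whether the Smpd3 and 1700067K01Rik controls are above background was not tested, and their folds rest on that low level.

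**Figure D2:**
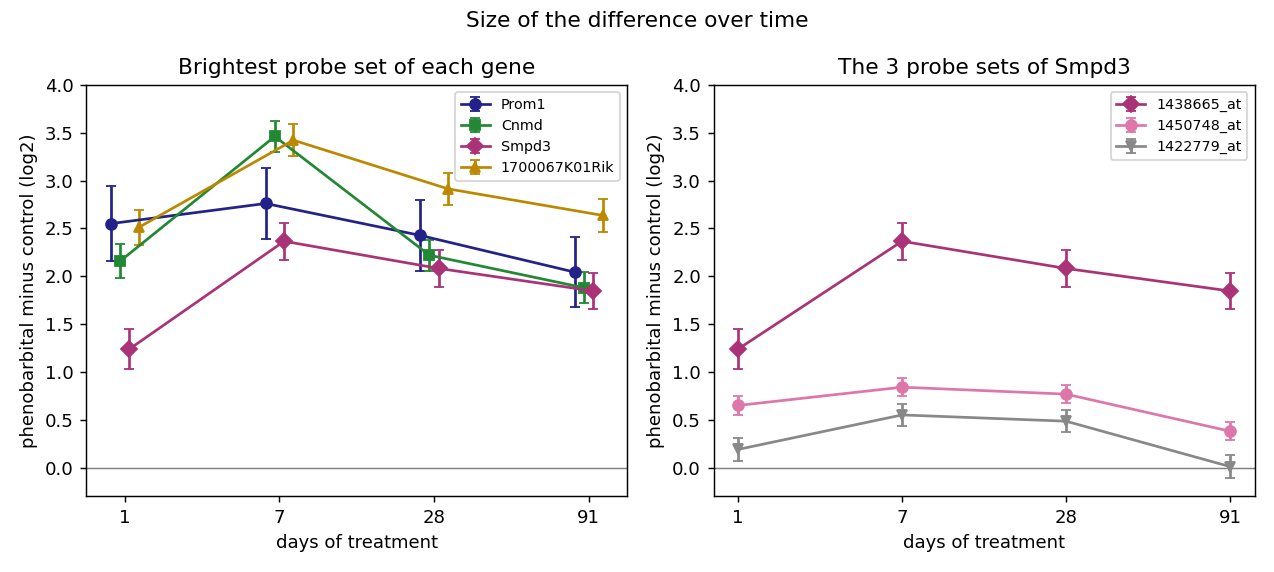
Phenobarbital minus control difference (log2, vertical axes) against days of treatment (horizontal axes), with bars of 1 SE on each side. Left, the brightest probe set of each gene, all largest at day 7 in these values (for Prom1 not under every setting), and right, the 3 Smpd3 probe sets, which run from 1438665_at with the largest differences down to 1422779_at with 0.01 at day 91.

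The choice of genes asked for a rise at each time and fixed neither the order nor the ratio of the sizes, so the change of the difference over time was tested. These tests use the same arrays as the choice. P-values in the next paragraphs are from limma, adjusted by the Benjamini-Hochberg method over 12580 genes, and a gene is called at an adjusted p under 0.05. The difference depended on time for Cnmd (adjusted p = 4.1e-05), Smpd3 (0.0124) and 1700067K01Rik (0.0150), and the test was not passed for Prom1 (0.660). Smpd3 entered the test through its treated arrays, and with no filter on dim genes its adjusted p was 0.0152. On its other probe sets, in a fit on all probe sets adjusted over 45037 of them, the adjusted p was 0.0362 for 1422779_at and 0.0430 for 1450748_at. In this F test 35.1% of all genes were called. Cnmd ranked 69 of the 12580 genes.

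From day 1 to day 7 the difference grew for 3 of the 4 genes, where 8.16% of all genes were called higher and 13.1% lower. It grew by 1.30 ± 0.24 for Cnmd (adjusted p = 2.96e-04), by 1.13 ± 0.28 for Smpd3 (0.00431) and by 0.91 ± 0.25 for 1700067K01Rik (0.00826). For Smpd3 the growth was called on 1 of 3 probe sets, with 0.36 (adjusted p = 0.169) on 1422779_at and 0.19 (0.412) on 1450748_at in the fit on all probe sets. Prom1 gave 0.21 with a 95% interval of -0.88 to 1.30 (0.816), which spans the growth seen for Smpd3 and 1700067K01Rik. From day 7 to day 28 the difference fell by 1.24 on the log2 scale for Cnmd (SE 0.23, adjusted p = 0.00181), against 5.78% of all genes called lower and 5.98% higher. The other 3 genes gave -0.33 (Prom1, 0.709), -0.28 (Smpd3, 0.518) and -0.51 (1700067K01Rik, 0.154) and were not called. Both comparisons share the day 7 arrays.

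Between day 28 and day 91, 0 of the 4 genes were called by limma, and 0 at an unadjusted p under 0.05, with values from -0.24 for Smpd3 to -0.38 for Prom1 and adjusted p from 0.292 to 0.620. In the fit on all probe sets the difference fell on both other Smpd3 probe sets, by 0.47 on 1422779_at (adjusted p = 0.0458) and by 0.39 on 1450748_at (0.0474). Of all genes 9.13% were called higher and 12.5% lower there. Between day 1 and day 91, 0 of the 4 genes were called by limma, and 1 had an unadjusted p under 0.05. The change from day 1 to day 91 was -0.51 for Prom1 (95% interval -1.60 to 0.58), -0.28 for Cnmd (-0.76 to 0.20) and 0.13 for 1700067K01Rik (-0.38 to 0.63). For Smpd3 it was 0.61 (interval 0.04 to 1.18, adjusted p = 0.0960), which passed at an adjusted p of 0.0485 when only the arrays of days 1 and 91 were fitted. With the mean of the 3 probe sets it was 0.05 (adjusted p = 0.805), and the other Smpd3 probe sets gave -0.18 for 1422779_at (0.493) and -0.27 for 1450748_at (0.175), so the sign of this change differs between them. In all, 11.1% of genes were called higher and 19.4% lower in this comparison.

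The signals of the 18 spike-in hybridization control probe sets differed between the groups at day 7. Their mean was 9.96 in day 7 controls (9.58 to 10.27) and 10.85 in day 7 treated arrays (10.76 to 10.97), with no overlap, whereas group means at other times ran from 10.69 to 11.21. With that mean as a covariate, the day 7 difference of Prom1 was 2.02 in place of 2.76, below its day 1 (2.76) and day 28 (2.71) differences, so its largest difference was no longer at day 7. The day 1 to 7 growth held for Cnmd and Smpd3, and for 1700067K01Rik it was 0.96 with an adjusted p of 0.125. The Cnmd change from day 7 to 28 was then -1.12, against -1.24 without the covariate, with an adjusted p of 0.652. Treatment and the spike-in mean went together at day 7, which limits what this model can separate. Within groups the correlation of the gene's signal with the spike-in mean over the 39 arrays was 0.33 for Prom1, 0.09 for Cnmd, -0.16 for Smpd3 and -0.04 for 1700067K01Rik. The 3′ minus 5′ difference of the actin and Gapdh control probe sets differed between the groups at day 28. It ran from 0.52 to 0.81 in controls and from 0.42 to 0.50 in treated arrays. With it as a covariate the day 28 differences were 2.59 for Prom1, 2.22 for Cnmd, 1.90 for Smpd3 and 2.92 for 1700067K01Rik.

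The baselines of Prom1 and Cnmd changed with time in opposite directions. In controls, Prom1 fell by 1.94 from day 1 to day 91 (SE 0.39, adjusted p = 2.01e-04), a 3.82-fold lower level. Cnmd rose by 1.55 over the same time (SE 0.17, adjusted p = 1.53e-08), a 2.93-fold higher level. Both changes were present by day 28, with -1.93 for Prom1 (adjusted p = 3.99e-04) and 1.46 for Cnmd (1.26e-07), where 8.68% of all genes were called higher and 11.8% lower. From day 28 to day 91 the values were -0.01 and 0.09 (0.992 and 0.757), with 8.43% of all genes called higher and 5.13% lower. In this comparison of controls at days 91 and 1, 19.7% of all genes were called higher and 16.6% lower. Smpd3 gave -0.09 (0.775) and 1700067K01Rik 0.19 (0.447). On another Smpd3 probe set, 1450748_at, controls rose by 0.33 (adjusted p = 0.0154 in the fit on all probe sets), and 1422779_at gave 0.23 (0.177). Later controls were both older and longer in the study, which cannot be told apart.

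The treated arrays of Prom1 and Cnmd moved in the same directions as the controls. From day 1 to day 91, treated Prom1 fell by 2.44 (SE 0.37, adjusted p = 1.07e-06) and treated Cnmd rose by 1.27 (SE 0.16, 5.56e-08), where 28% of all genes were called lower and 21.1% higher. Treated Smpd3 rose by 0.52 (SE 0.19, adjusted p = 0.0238). That call was lost, at adjusted p of 0.0685 and 0.0678, without day 1 phenobarbital replicate 5 or day 91 phenobarbital replicate 1. The other Smpd3 probe sets gave 0.05 (0.789) and 0.06 (0.680) there. Treated 1700067K01Rik gave 0.31 (0.129). Among the steps between successive times, treated Prom1 was called from day 7 to day 28, when it fell by 1.62 (adjusted p = 0.00147), against 11.9% of all genes called lower. It gave -0.43 from day 1 to day 7 (0.426) and -0.39 from day 28 to day 91 (0.473). From day 7 to day 28 treated Smpd3 also fell, by 0.77 (0.00354), and treated 1700067K01Rik by 0.67 (0.00421), while Cnmd gave -0.23 (0.350). Between days 1 and 7 the treated arrays rose for Cnmd (1.75), Smpd3 (1.37) and 1700067K01Rik (0.92), all called, against 9.8% of all genes called higher. The Smpd3 probe set behind these calls was chosen with treated arrays included. Its treated means at days 1, 7 and 28 were 6.60, 7.98 and 7.21. Those of 1422779_at were 5.75, 6.40 and 6.07, and those of 1450748_at 6.08, 6.61 and 6.34. Both moved in the same directions but by less, and no test of these steps is given for them.

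Because the baselines moved, levels of different times crossed. Prom1 in treated mice at day 91 averaged 7.86, against 7.75 in untreated mice at day 1, and the ranges overlapped. Cnmd in treated mice at day 1 averaged 8.46 and in controls at day 91 7.86, and those ranges overlapped through 1 array, day 1 phenobarbital replicate 3 at 8.0 against a highest control of 8.01. That array, described below, had high exocrine pancreas genes, and the next treated array read 8.51. Smpd3 and 1700067K01Rik showed no overlap between treated arrays of days 1 or 91 and controls of the other time.

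Of the 4 genes, Prom1 had the widest spread between arrays. Its residual SD over the 8 groups was 0.620, at the 99.3rd percentile of the 12580 genes, whose median was 0.140. The residual SDs of Smpd3 (0.321), 1700067K01Rik (0.282) and Cnmd (0.272) lay at the 95.7th, 93.7th and 92.9th percentiles. The group SD of Prom1 ran from 0.22 in treated arrays to 1.08 in controls, both at day 1. That of Cnmd ran from 0.06 in day 28 treated arrays to 0.50 in day 1 controls, and for Smpd3 and 1700067K01Rik the widest group had 2.48 times the SD of the narrowest. With 4 or 5 arrays in a group these SDs are imprecise and were not tested against each other.

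**Figure D3:**
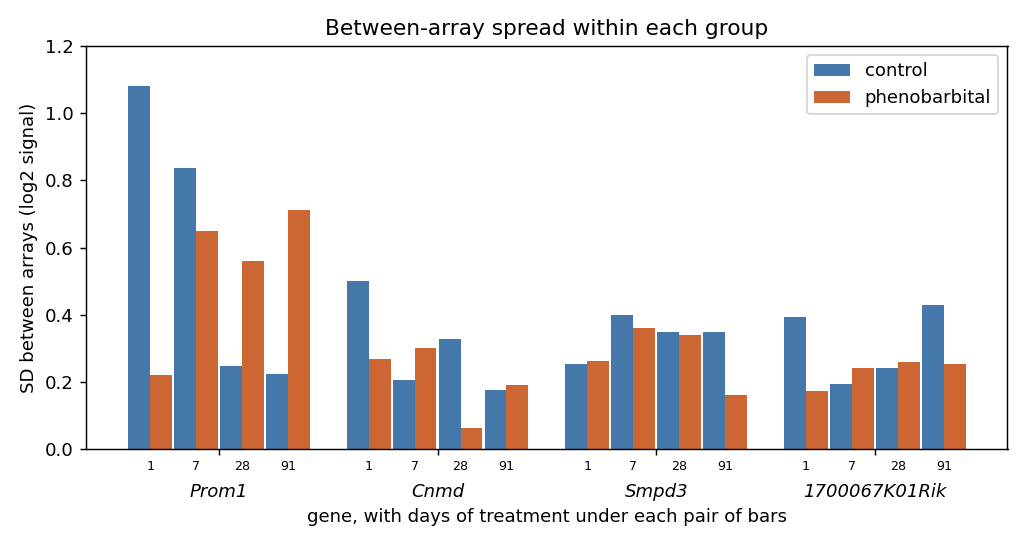
SD between the arrays of each group (log2 signal, vertical axis, from 0) for the 4 genes, with days of treatment under each pair of bars and controls in blue beside phenobarbital in orange. Prom1 has the tallest bar, 1.08 in day 1 controls, and Cnmd the shortest, 0.06 in day 28 treated arrays.

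Within groups, no pair of the 4 genes passed a test of correlation after adjustment. Deviations from the group means over the 39 arrays gave r = -0.43 and rho = -0.29 for Prom1 with Cnmd, and r = 0.39 and rho = 0.33 for Prom1 with 1700067K01Rik. The 2-sided permutation p, with arrays permuted within groups, was 0.0279 and 0.0260 for r, and 0.0836 for both after adjustment over the 6 pairs. For rho the adjusted p was 0.284 for both. Without the 2 arrays farthest from the median, r was -0.28 and 0.41. The other 4 pairs had r between -0.28 and 0.25. In the 20 treated arrays alone Prom1 and 1700067K01Rik gave r = 0.70 and rho = 0.66 (permutation p = 0.00458 and 0.00829, adjusted over 12 correlations 0.0550 and 0.0995), and r = 0.62 without the 2 farthest arrays. In the 19 controls the pair gave r = 0.19 and rho = 0.12 (adjusted p = 0.737 and 0.854). The difference between treated arrays and controls was not tested.

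Over the 39 arrays, treatment and time included, the genes whose signal ran most like each of the 4 were named by Pearson r, a description in which all arrays share labelling and scaling. For 1700067K01Rik they were Cyp2b10 (r = 0.97), Cyp2c55, the glutathione transferase Gstm3, Cyp2c54 and 4931406C07Rik (0.95 each). For Smpd3 they were 1700067K01Rik (0.93), the lipase-related Pnliprp1 (0.91), Prg4 (0.90), Rarres1 (0.89) and Cyp2b10 (0.88). For Cnmd they were the carboxylesterase Ces2a and Rarres1 (0.93 each), Mfsd11 and Pepd (0.92 each) and Aldh1a1 (0.91). For Prom1 they were Ttc39a and Dio1, a deiodinase of thyroid hormone (0.91 each), Cyp3a44 and Cyp2g1 (0.90 each) and the sulfotransferase Sult3a1 (0.89). The genes most like Prom1 had lower control means at day 91 than at day 1. The values ran from -0.43 for Cyp2g1, not called by limma (adjusted p = 0.118), to -1.95 for Sult3a1. They were picked by r over arrays that include this change, so nothing is read from it.

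By deviations from the group means, which leave treatment and time out, other genes came first. They were 9030619P08Rik (0.77), Stil (0.76) and Slc22a29 (0.75) for Prom1, and Pigl (0.76), Fam149b and Cpsf4l (0.70 each) for Cnmd. For Smpd3 they were Steap4 (0.62) and the fibrinogen chains Fgb (0.59) and Fgg (0.57), and for 1700067K01Rik they were Ttc39a (0.63), Slc39a5 (0.61) and Gstm3 (0.59).

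The nearest gene on each side with a single-symbol probe set was taken as the neighbour, and genes without one were skipped. These neighbours did not share the size of difference of the 4 genes. Next to Prom1, Tapt1 differed by -0.32 at day 1 (adjusted p = 0.0125) and 0.49 at day 7 (3.54e-04), with -0.05 and 0.14 at the later times. Next to Smpd3, Prmt7, a protein arginine methyltransferase, rose by 0.52 at day 1 (1.55e-06), 0.26 at day 28 (0.00389) and 0.18 at day 91 (0.0485). Next to 1700067K01Rik, Samd1 rose by 0.45 at day 1 (9.55e-04) and was not called later. Next to Cnmd, Sugt1 fell by 0.22 at day 28 (0.0107). The neighbours on the other side, Fgfbp1, Zfp90, Misp3 and 4930452G13Rik, did not pass the filter and were not tested. At days 1, 7, 28 and 91 Fgfbp1 differed by 0.38, 0.29, 0.29 and 0.17, and Misp3 by 0.36, 0.08, 0.22 and 0.00. Zfp90 gave 0.16, -0.13, -0.30 and 0.11, and 4930452G13Rik gave -0.09, -0.29, 0.05 and -0.28.

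Other enzymes of sphingolipid metabolism changed in both directions. Of 45 listed, 34 were tested. At day 1, 4 were higher and 5 lower, at day 7, 3 and 1, at day 28, 8 and 9, and at day 91, 2 and 3. Over all genes 15.8%, 5.64%, 11.2% and 4.62% were called higher and 16.7%, 11.4%, 18.1% and 16.1% lower. The median difference of the list was -0.06, 0.06, -0.04 and -0.07, beside 0.01, -0.05, -0.02 and -0.07 over all genes. Sgpl1, the lyase that ends the pathway by breaking sphingosine-1-phosphate, was called higher at all 4 days, by 0.78, 0.86, 0.57 and 0.60.

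Among the other listed enzymes of the pathway, the sphingomyelinase Smpd2 rose by 0.31 at day 1 (adjusted p = 6.58e-04) and by 0.48 at day 28. It gave -0.03 and 0.07 at days 7 and 91. Smpdl3b, a related phosphodiesterase, rose by 0.32 at day 1 (0.0289) and 0.40 at day 28 (0.00535). The ceramidase Acer3 rose by 0.52 at day 7 (0.00261) and 0.41 at day 91 (0.0133). Sgms2, which makes sphingomyelin, fell by 0.62 at day 1 (9.30e-04) and 0.57 at day 28 (0.00163). The phosphatase Sgpp1 fell by 0.65 at day 1 (0.00198), and Plpp3, a lipid phosphatase, by 0.37 (0.00282) and at day 28 by 0.40 (0.00112). With quantile normalization the counts were 6 higher and 5 lower at day 1, 3 and 0 at day 7, 9 and 6 at day 28 and 3 and 0 at day 91, so the lower calls at days 7 and 91 rest on the scaling.

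**Figure D4:**
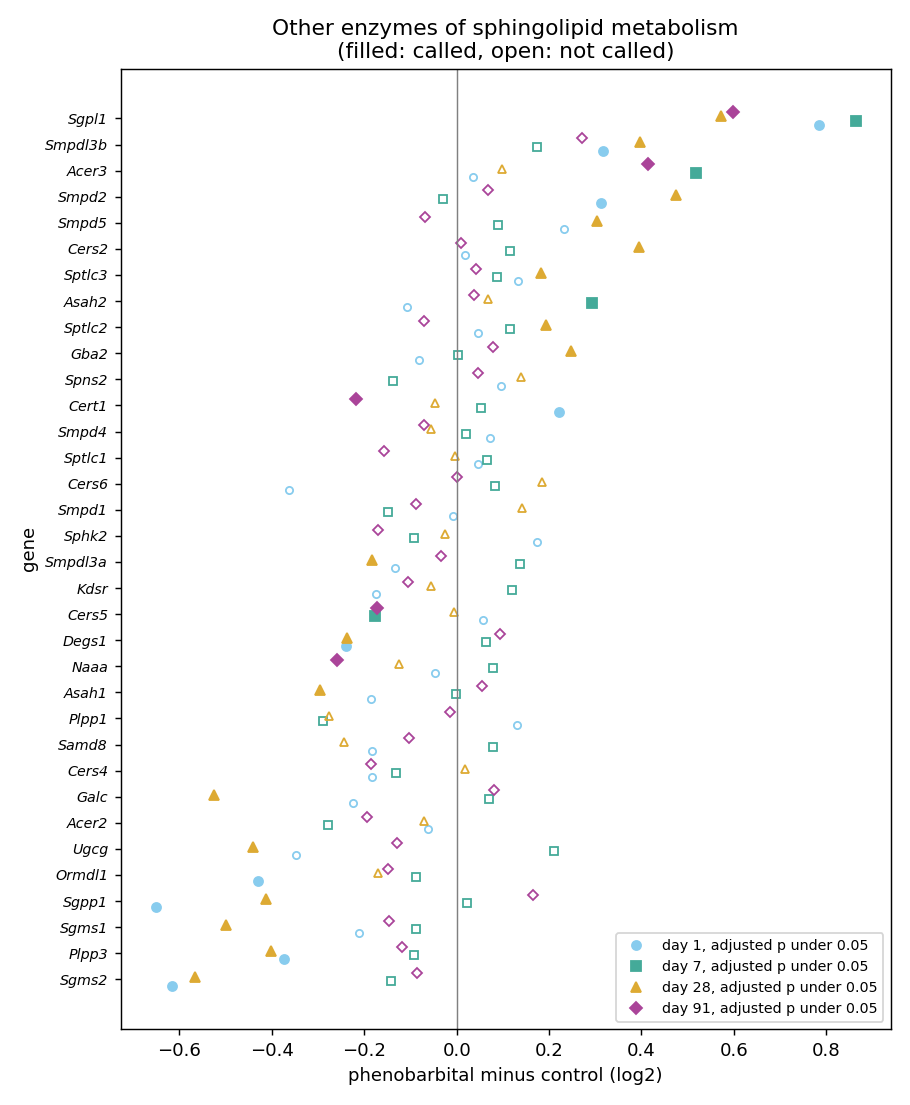
Phenobarbital minus control difference (log2, horizontal axis) of the 34 tested enzymes of sphingolipid metabolism other than Smpd3 (vertical axis), with colour and shape for the day and filled symbols for an adjusted p under 0.05. Sgpl1 at the top is filled at all 4 days, and Sgms2 at the bottom is filled at days 1 and 28.

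Markers of bile duct and progenitor cells, for which Prom1 is used as a marker in liver, were called in both directions. Of 16 listed, 9 were tested, and 1 was higher and 0 lower at day 1, 0 and 3 at day 7, 1 and 0 at day 28, and 1 and 3 at day 91. Over all genes 15.8%, 5.64%, 11.2% and 4.62% were called higher and 16.7%, 11.4%, 18.1% and 16.1% lower. Against those shares nothing is read from 0 or 1 called of 9 genes. The 3 lower calls at days 7 and 91 stood above the shares of 11.4% and 16.1%, but most of them rest on the scaling. The list medians were 0.00, -0.06, 0.09 and -0.18, beside 0.01, -0.05, -0.02 and -0.07 over all genes. With quantile normalization or arrays centred on their median the lower calls were 1 at day 7 and 0 at day 91, and the higher calls at day 28 were 2, with Prom2 added (0.21 and 0.22, adjusted p = 0.0295 and 0.0291). Prom2, the relative of Prom1, rose by 0.33 at day 1 (adjusted p = 0.00198) and fell by 0.25 at day 91 (0.0182). Epcam rose by 0.57 at day 28 (6.30e-04) and Cdh1 by 1.33 at day 91. Cd24a fell by 0.48 at day 7 (0.0241). Krt19 fell by 0.31 at day 7 (0.0445) and Krt23 by 0.36 at day 91 (0.0336). Muc1 fell by 0.23 at day 7 (0.0420) and by 0.24 at day 91 (0.0311). The calls of Krt19, Krt23 and Muc1 were lost under each of these other scalings, as was the Prom2 fall at day 91. Sox9 was not called at any day, and Krt7, Cldn4, Cldn7 and Cftr were not among the tested genes.

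The summed level of the bile duct list, as the mean over its tested genes, had no single direction with treatment. At day 1 it was 6.98 in controls (6.91 to 7.07) and 6.82 in treated arrays (6.66 to 6.87). Onecut1, a transcription factor that was not called, gave -1.47 at that day (adjusted p = 0.0695), far from the list median of 0.00. At day 7 the level was 6.87 in controls (6.70 to 6.99) and 6.83 in treated arrays (6.75 to 6.95). At day 28 it was 6.53 (6.42 to 6.76) and 6.71 (6.53 to 6.89), higher with treatment as Prom1 was, and at day 91 6.62 (6.45 to 6.78) and 6.59 (6.47 to 6.91). The groups overlapped at days 7, 28 and 91 and not at day 1. From day 1 to day 91 Cdh1 fell by 1.70 and Cd24a by 1.96 in controls, Prom2 rose by 0.43 (adjusted p = 1.1e-04), and 6 of the 9 markers were not called. Cdh1 is also made by hepatocytes. The part of bile duct or progenitor cells in the Prom1 baseline was not tested.

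Most cartilage and tendon genes did not pass the filter. Of 20 listed, 7 were tested, and 0 were higher at any of the 4 days by limma at an adjusted p under 0.05, with 2, 1, 1 and 2 lower. With the shares of all genes given above, from 4.62% to 15.8% higher and 11.4% to 18.1% lower, nothing is read from counts of 0 to 2 of 7 genes. At an unadjusted p under 0.05, 1 was higher at day 1 and 0 at the other days. With arrays centred on their median 1 was higher at day 1, Col9a1 with 0.31. The transcription factor Sox5 fell by 1.02 at day 1, and Acan, the core protein of cartilage aggrecan, fell by 0.39 at day 91 (adjusted p = 0.0100). Tnmd, the closest relative of Cnmd, did not pass the filter. Among the other BRICHOS domain genes, 7 of 9 were tested, and the call at any day was 1, Itm2b lower by 0.10 at day 1 (0.00449), which was lost with arrays centred on their median. Gkn1, a stomach mucosa protein, was called higher at day 1 with quantile normalization (0.32, adjusted p = 0.0424) and with arrays centred on their median (0.32, 0.0454), and at day 28 with quantile normalization (0.30, 0.0475), against 0.28 and 0.26 uncalled in the deposited values.

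Of the endothelial markers, 0 of 8 were called higher and 2, 3, 5 and 2 lower at days 1, 7, 28 and 91, and of the stellate cell and fibroblast markers 0 of 10 higher and 0, 2, 5 and 3 lower. Over all genes 16.7%, 11.4%, 18.1% and 16.1% were lower, and in both lists the day 28 count stood furthest above that share (3 of 8 endothelial markers with quantile normalization). The list medians at day 28 were -0.27 and -0.35, beside -0.02 over all genes. Treated and control arrays of day 28 also differed without overlap in the 3′ minus 5′ difference described above, and its part in these counts was not tested. At an unadjusted p under 0.05 the count of higher markers was also 0 in both lists at all 4 days. Some of these calls were lost with quantile normalization. Of the hepatocyte markers 0 of 10 were called higher and 1, 2, 3 and 2 lower at the 4 days. Of the macrophage and leukocyte markers 0 of 8 were higher and 1, 0, 0 and 0 lower. Beside the shares of all genes nothing is read from these counts. From day 1 to day 91 in controls, 7 of 8 endothelial, 8 of 10 stellate cell and fibroblast and 5 of 8 macrophage and leukocyte markers were lower and 0 higher, against 16.6% of all genes lower and 19.7% higher, over the time in which the Prom1 baseline fell and that of Cnmd rose. Hepatocyte markers also went down there, with 7 of 10 lower and 1 higher (4 lower with arrays centred on their median). The list medians were -0.47 for endothelial, -0.58 for stellate cell and fibroblast and -0.75 for macrophage and leukocyte markers. That of the hepatocyte markers was -0.11, beside 0.04 over all genes. The part of these cell types in the Prom1 and Cnmd baselines was not tested. Of the CAR-responsive drug metabolism genes, 25, 27, 25 and 22 of 30 were higher at the 4 days. Lower ones numbered 0, 0, 1 and 2. Over all genes 15.8%, 5.64%, 11.2% and 4.62% were called higher with treatment at these days. The median differences of the list were 0.95, 0.99, 0.79 and 0.60, beside 0.01, -0.05, -0.02 and -0.07 over all genes.

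Some arrays stood apart. On day 1 phenobarbital replicate 3 the mean of 5 exocrine pancreas markers was 10.91, against at most 7.25 on the other arrays, and without it the Cnmd difference at day 1 was 2.27. In day 7 treated arrays the mean of the macrophage and leukocyte markers ran from 7.73 to 9.99, against at most 8.83 in the other groups. Day 28 control replicate 2 carries a label outside the range of the others, and without it the day 28 differences were 2.51, 2.15, 2.04 and 2.91 for Prom1, Cnmd, Smpd3 and 1700067K01Rik. Array scaling moved the split of all calls. Of the genes called at days 1, 7, 28 and 91, 48.5%, 33.2%, 38.1% and 22.3% were higher, and with quantile normalization 62.4%, 45.3%, 57.9% and 38.9%. Centring on the array median gave 63.0%, 51.4%, 53.4% and 42.4%, while the median difference of all genes stayed within 0.07 of 0 under each of these scalings.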

How the data were processed

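The authors deposited log2 signals, 1 per probe set and array, already normalized between arrays to judge from near-equal array means. How they normalized and summarized probes is not given in the sources used here, and the submitters' processing notes name only GCOS, Affymetrix software. No value was rescaled. Probe sets were named by the platform annotation (34945 with 1 symbol, 932 with several, 9160 with none, 64 controls). Each gene was read by its brightest single-symbol probe set, the one with the highest mean over all arrays, treated ones included. It was tested when above the array median on at least 4 arrays, which left 12580 genes and removed 5613. In R 4.3.3, limma 3.58.1 estimated a mean for each of the 8 groups over the 39 arrays, with moderated variances that follow mean signal (residual degrees of freedom 31, prior 4.46). Tests were 2-sided, with Benjamini-Hochberg adjustment over all tested genes in each comparison. The model was tested on simulated data first.

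The members and lists were chosen with earlier results of these data known. By rule, the text names the 4 genes and all their probe sets, Cyp2b10 and Cyp2c55, the 5 genes with the highest r over the arrays and the 3 with the highest r of deviations for each, chromosomal neighbours, and up to 4 members of a list, or any called ones of the sphingolipid, BRICHOS, cartilage and bile duct lists. Col9a1, Gkn1 and Onecut1 were chosen after their values were seen. Nothing in the labels ties each array to its own animal, so the spread behind a p-value may be technical, and the number of arrays limits precision. The labels' treatment text speaks of 28 days and their extraction text also of kidney, and the sample labels (durations to 91 days, liver) were used. Alternatives were other scalings, filters, probe set rules, priors, array weights, covariates, the arrays fitted and each array left out.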

Additional observations from a re-analysis of the deposited data

Results flagged for a closer look

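The difference between phenobarbital and control changed between times by limma in 4 comparisons. It grew from day 1 to day 7 by 1.30 for Cnmd, 1.13 for Smpd3 (on 1 of its 3 probe sets) and 0.91 for 1700067K01Rik, and for Cnmd it changed by -1.24 from day 7 to day 28. All of them share the day 7 arrays, whose controls had the lowest spike-in signals.

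Single arrays lay far from the rest of their group in 5 of 48 combinations of probe set and group, where chance gives about 1 in 20. On Smpd3 1438665_at, day 91 phenobarbital replicate 1 read 7.40 and the next array 7.12. On Smpd3 1422779_at, day 7 phenobarbital replicate 3 read 6.92 and the next 6.37. On Smpd3 1450748_at, day 28 control replicate 5 read 5.79 with the next at 5.56, and day 91 control replicate 3 read 5.56 with the next at 5.80. On Cnmd, day 1 phenobarbital replicate 3, the array with high exocrine pancreas genes, read 8.0 and the next 8.51.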

How the results depend on the processing

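Of 514 values under other settings, 494 counted as unchanged and 7 changed sign. For a test, unchanged means the same direction and the same side of the threshold. For a phenobarbital minus control difference it means the same direction and a move of less than the gene's residual SD. Counts and SDs were compared within a set tolerance. Of 1677 values with 1 array left out, 1669 were unchanged by these rules and 5 changed sign. Called values were involved in 0 of these sign changes. With the spike-in mean in the model, Prom1 gave -0.74 for day 7 minus day 1 and 0.69 for day 28 minus day 7. With array weights Prom1 gave 0.0248 for the difference at day 91 minus day 1, and over the same time controls gave -0.0652 for 1700067K01Rik and 0.0437 for Smpd3. Smpd3 controls gave 0.16 with the mean of all probe sets and 0.23 in a fit on those arrays, where 1422779_at is the brightest probe set. With 1 array left out, Prom1 ran from -0.18 to 0.52 for day 7 minus day 1 (below 0 without day 1 control replicate 2 or 3 or day 7 control replicate 2). Likewise 1700067K01Rik ran from -0.0623 (without day 1 control replicate 2) to 0.27 for day 91 minus day 1, and Smpd3 controls from -0.21 to 0.0334 (without day 91 control replicate 4). When the spike-in mean entered the model, 0 of the 4 genes in place of 1 were called for the difference at day 28 minus day 7, the day 7 difference of Prom1 was 2.02, and the time dependence of 1700067K01Rik had an adjusted p of 0.0789. With only the arrays of the groups compared, 1 gene in place of 0 (Smpd3) was called for day 91 minus day 1, and treated 1700067K01Rik was called for day 91 minus day 1 (adjusted p = 0.0410). With the mean of all probe sets, the Smpd3 differences were 0.69, 1.25, 1.11 and 0.75 at days 1, 7, 28 and 91, and its treated rise from day 1 to day 91 was 0.21 (0.0741). Leaving out 1 array moved the residual SD of Cnmd between 0.236, without day 1 control replicate 2, and 0.276. The cause of these shifts was not tested. Calls in the lists numbered 186 over the 4 days and 159 to 215 under other settings. The time dependence was called for 4415 genes, for 1951 with the spike-in mean, 2253 with the 3′ minus 5′ difference of control probe sets and 9665 of 45037 probe sets unfiltered. Calls at day 7 were 2138 and 851 with the spike-in mean. At day 28, 3679 became 2186 with the spike-in mean and 1027 with the 3′ minus 5′ difference, and at day 91, 2604 became 4057 with array weights. No paired analysis was possible because the labels give no replicate numbers or pairs. The replicate numbers used in this text count the arrays of each group in the order of the deposited samples. The low Smpd3 and 1700067K01Rik controls limit their folds. The F test uses all groups, so a fit on fewer arrays was not run for it.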
